A study of Rattus norvegicus with 6 samples.

Results

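Chromatin accessibility was compared between Med14 S983A and WT INS-1 cells, both exposed to Exendin-4 (Ex-4), with 1 ATAC-seq library of each genotype out of 6 libraries in the series. The comparison covers all merged peaks off the mitochondrial chromosome, 220487 of 220490, and 158416 of these were called in at least 1 of the 2 Ex-4 libraries. INS-1 cells derive from a rat insulinoma and serve as a model of the beta cell. WT cells carry the native serine of Med14 and Med14 S983A cells an alanine in its place, introduced by CRISPR knock-in. In both genotypes the medium was replaced by one without serum, after which Ex-4 was given at 10 nM for 1 h. The remaining libraries were untreated cells (CON) and cells given 10 µM forskolin (FSK), which activates adenylate cyclase, for 1 h. More than 1 independent Med14 S983A line was made, and it is not given which of them the mutant library came from or whether cultures were pooled. With 1 library per condition there is no replicate error and no test, so that every difference below describes these 2 libraries, and line, culture and genotype cannot be told apart.

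Mediator is a large complex that links transcription factors bound at enhancers to RNA polymerase II, and Med14 is the backbone subunit that holds its modules together. Ex-4 is an agonist of the GLP-1 receptor of beta cells. It raises cAMP and so activates protein kinase A, which phosphorylates the transcription factor CREB and, at the serine replaced here, Med14. In ATAC-seq the Tn5 transposase cuts DNA that is not covered by nucleosomes, and enhancers and promoters in use appear as peaks of reads.

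Each merged peak is listed with its length, its FPKM in each library and the libraries in whose own peak list it was called. FPKM gives the reads in the peak relative to its length and to the library's reads in peaks. The FPKM rose in whole steps, which gave 158800000 reads in peaks for WT Ex-4 and 147100000 for Med14 S983A Ex-4, within the 134300000 to 251100000 of all 6 libraries. WT Ex-4 had 132611 called peaks and Med14 S983A Ex-4 129420. A value of 0 marks a peak that was not called in that library, whatever reads it held, and is given here as listed at 0, with no fold. Because values count reads inside the library's own peaks, a merged peak of which a library called only a piece also reads low in it. Peaks carry no gene names here, and the labelled beta cell type could not be checked against its markers.

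Differences are Med14 S983A minus WT on the scale log2(FPKM + 0.5), which understates the change of weak peaks. Of the 220487 peaks, 146906 passed a minimum mean of 1 FPKM over the 6 libraries. At least 2-fold higher in Med14 S983A were 19570 of these (13.3%), and 29266 (19.9%) were at least 2-fold lower. Most of these differences were differences in calling, since WT Ex-4 lists 14182 of the higher peaks at 0 and Med14 S983A Ex-4 lists 17521 of the lower peaks at 0. The peaks therefore fall into 4 classes that are kept apart below. Both libraries called 103609 peaks, Med14 S983A alone 25808, WT alone 28999 and neither 62071. A peak that passed the filter through the single library that called it had to differ, so the 14184 higher of 14191 mutant-only peaks and the 17523 lower of 17529 WT-only peaks are no finding.

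Peaks called in both libraries had a value in each, and here losses outnumbered gains in Med14 S983A. Of 103609 such peaks 101754 passed the filter, of which 5385 (5.29%) gained at least 2-fold in Med14 S983A and 11743 (11.5%) lost at least 2-fold. The centre of the distribution stayed near 0, with a median difference of 0.03 and quartiles of -0.44 and 0.30. The lower tail was longer, with 5% of peaks below -1.61 and 5% above 1.03, and the extremes were -6.16 and 5.50. At least 4-fold lower were 2884 peaks, and 815 were at least 4-fold higher. Near the 2-fold limit the peaks were dense, as 2102 had a ratio of 1.8 to 2 and 1413 a ratio of 2 to 2.2 on the higher side, and 2772 and 1990 on the lower side.

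The size of the imbalance depended on the scaling. Centring each library on its median log2 value over peaks called in all 6 libraries shifted every Ex-4 difference by 0.11, to a median of 0.14, and gave 6814 higher and 10135 lower peaks. Quantile normalization gave 6866 higher and 8976 lower. The higher share of all peaks that differed was 31.4% on the authors' scale, 40.2% after centring and 43.3% after quantile normalization, so losses were more frequent under each, by an amount that the scaling sets.

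**Figure D1:**
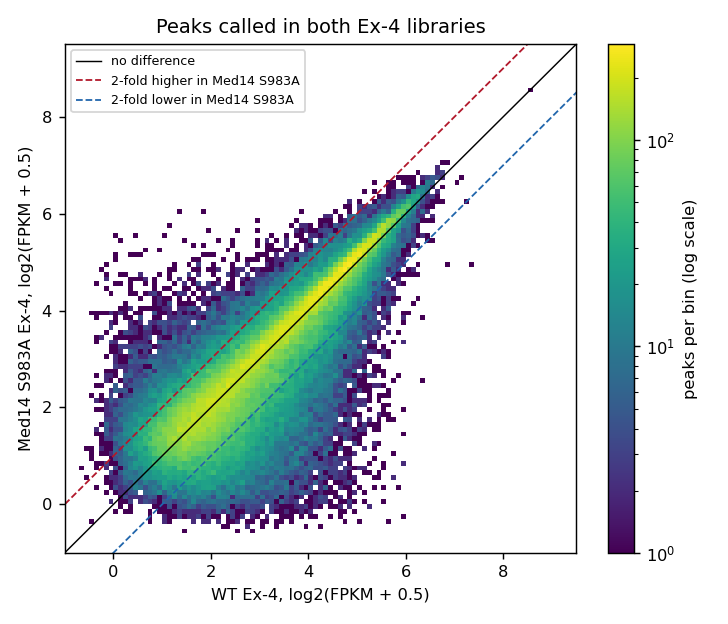
Level of each peak called in both Ex-4 libraries and passing the filter, in WT on the horizontal axis and Med14 S983A on the vertical axis, both as log2(FPKM + 0.5), with colour for the number of peaks per bin on a log scale. The bulk follows the diagonal, 5385 peaks lie on or above the upper 2-fold line and 11743 on or below the lower one.

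Counting error was small beside these differences. The median peak called in both held 572 reads in WT Ex-4 and 453 in Med14 S983A Ex-4, a counting error of 4.70% in the latter, and the median counting SD of a difference was 0.095 on the log2 scale. All 5385 higher and all 11743 lower peaks had a 95% exact interval of the ratio that did not include 1. They were chosen by the same reads to differ at least 2-fold, so this was close to given. The intervals are not adjusted for that choice. The interval lay wholly above 2 for 4378 higher peaks (81.3%), and for 10268 lower peaks (87.4%) the fall was more than 2-fold over the whole interval. These intervals, and all those below, cover counting error only. The variation between cultures, which is not known here, is not in them. Neither are reads of a merged peak that lie outside the piece a library called.

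Peak length separated the classes of change (each class includes its upper limit). Among peaks called in both libraries, 2.21% of those up to 200 bp were at least 2-fold lower in Med14 S983A and 1.97% higher. From 200 to 300 bp the shares were 7.16% lower and 4.70% higher, and from 300 to 500 bp 13.2% and 6.48%. Peaks of 500 to 1000 bp, the most numerous length class with 41134 peaks, had the highest share of losses, 15.7%, against 5.55% of gains. Above 1000 bp losses dropped to 4.96% and gains to 4.54%, and the median difference was 0.14. Called in both were 27.9% of the tested peaks up to 200 bp, against 97.6% above 1000 bp. Peaks that a single library called are left out of these shares. The part of this choice in the low shares of short peaks was not tested. The excess of losses from 300 to 1000 bp held under centring and quantile normalization, at 5702 lower and 2784 higher or 5177 and 2718 for 500 to 1000 bp. At 300 to 500 bp it shrank, from 3566 lower and 1747 higher on the authors' scale. There it was 3028 and 2205 after centring and 2596 and 2314 after quantile normalization. Both scalings turned the balance at up to 200 bp and above 1000 bp, where gains then outnumbered losses by 242 to 108 or 268 to 78 and by 809 to 639 or 720 to 583. At 200 to 300 bp it was turned as well, to 774 higher against 658 lower or 846 against 542.

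Level gave a second gradient. Losses made up 10.1% of peaks with a mean of 1 to 2 FPKM, 14.9% at 2 to 4, 15.95% at 4 to 8, 12.7% at 8 to 16 and 4.97% at 16 to 32 FPKM. Gains ran from 5.68% and 6.50% in the lowest classes over 6.85% at 4 to 8 FPKM and 5.22% at 8 to 16 FPKM to 3.12% at 16 to 32 FPKM. Among the 7746 strongest peaks, at 32 FPKM or more, 0.813% were lower and 1.32% higher, and the central 50% of differences spanned only 0.23 on the log2 scale, against 1.00 at 2 to 4 FPKM. Scaling turned the balance in the weakest class under quantile normalization, where 820 peaks of 1 to 2 FPKM were higher and 423 lower. At 32 FPKM or more gains stayed ahead, at 163 to 53 after centring and 78 to 70 after quantile normalization, and at the levels between 2 and 32 FPKM losses stayed ahead.

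The classes of length and level were then crossed. The highest share of losses was among peaks of 500 to 1000 bp at 2 to 4 FPKM, where 1538 of 6505 (23.6%) were at least 2-fold lower and the median difference was -0.22. Within the same length class the share was 20.2% at 1 to 2 FPKM and fell above 4 FPKM, to 21.4% at 4 to 8 FPKM, 16.1% at 8 to 16, 6.95% at 16 to 32 and 1.31% at 32 FPKM or more. Among peaks over 1000 bp the share fell with level throughout, from 21.3% at 1 to 2 FPKM and 18.6% at 2 to 4 FPKM to 4 of 3314 peaks (0.121%) at 32 FPKM or more. Among peaks up to 200 bp called in both, a minority of the tested peaks of that length, no level class had more than 2.77% of losses.

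**Figure D2:**
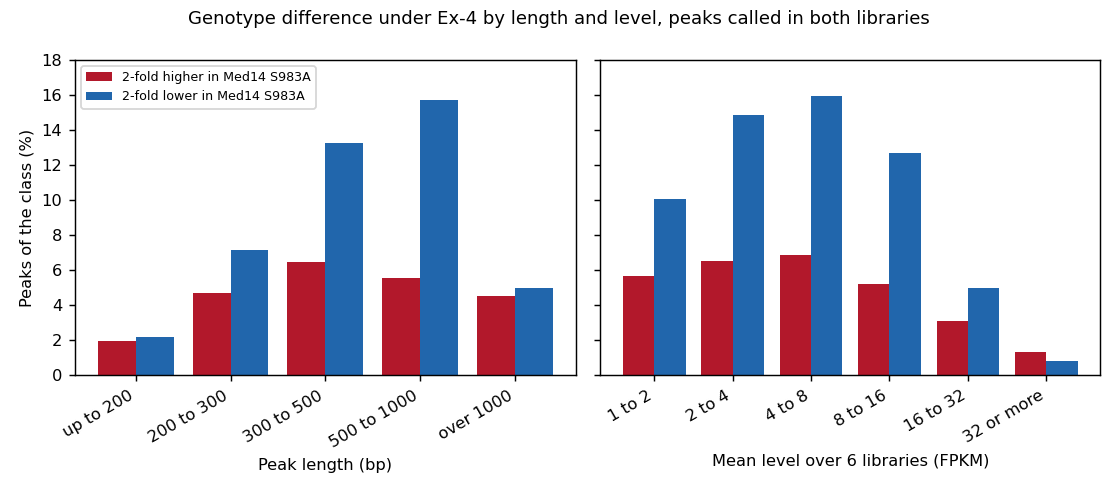
Share of peaks (%) at least 2-fold higher (red) and at least 2-fold lower (blue) in Med14 S983A Ex-4 than in WT Ex-4, by peak length in bp (left) and by mean FPKM over the 6 libraries (right), among peaks called in both Ex-4 libraries, on the authors' scale. Losses peak at 500 to 1000 bp (15.7%) and at 4 to 8 FPKM (15.95%), and both directions are rare at 32 FPKM or more.

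The 8 peaks with the largest gains among those called in both libraries had low values in WT and high values in Med14 S983A. They had 0.263 to 0.841 FPKM in WT Ex-4 and 23.1 to 46.0 FPKM in Med14 S983A Ex-4, with differences of 4.95 to 5.50. Here and at the largest losses below, a low value may come from a peak called only in part, which was not tested. The first, on chromosome 10 of rn6 from 94563124 to 94563935 (811 bp), had 0.528 FPKM in WT Ex-4 (95% exact Poisson interval 0.410 to 0.669) and 46.0 FPKM in Med14 S983A Ex-4 (44.8 to 47.2), a ratio of 87.1 (68.6 to 112). In the other libraries it is listed at 0 in WT CON and had 0.471 FPKM in WT FSK, against 47.3 in mutant CON and 46.8 in mutant FSK. The 3 mutant libraries were thus alike at this peak, and all stood far above the 3 WT libraries.

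The second gain lay on chromosome 19 from 21361031 to 21361676 (645 bp), where WT Ex-4 had 0.615 FPKM and Med14 S983A Ex-4 44.1 FPKM. The third, on chromosome 6 from 132195309 to 132196110, was the one that varied most with treatment in both genotypes. In CON, Ex-4 and FSK its WT levels were 0.379, 0.841 and 1.52 FPKM, and its Med14 S983A levels were 40.0, 45.6 and 63.6 FPKM. The fifth and sixth were both on chromosome 9, from 10768521 to 10769865 with 0.501 and 32.4 FPKM and from 119261603 to 119262353 with 0.554 and 33.9 FPKM in WT and Med14 S983A Ex-4. Under Ex-4 the gap between the genotypes follows from the choice of these 8. In CON and FSK no WT library exceeded 1.52 FPKM, with some listed at 0, and no Med14 S983A library was under 22.5 FPKM. The share of all peaks with such a gap was not counted.

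The 8 largest losses mirrored these values. They had 33.4 to 61.5 FPKM in WT Ex-4 and 0.310 to 0.938 FPKM in Med14 S983A Ex-4, with differences of -6.16 to -5.23. The first, on chromosome 4 from 160498248 to 160499103 (855 bp), had 61.5 FPKM in WT Ex-4 and 0.366 FPKM in Med14 S983A Ex-4 (95% exact Poisson interval 0.268 to 0.488), a WT to mutant ratio of 168 (126 to 230). WT CON had 60.2 FPKM and WT FSK 61.2, whereas Med14 S983A CON lists the peak at 0 and Med14 S983A FSK had 0.596. The WT level at this site was thus close to equal with and without stimulation.

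The other losses differed in how the WT level varied with treatment. The second, on chromosome 17 from 9166235 to 9167420, went from 30.5 FPKM in WT CON to 48.5 in WT Ex-4 and 72.3 in WT FSK. The mutant CON library lists it at 0, and the mutant Ex-4 and FSK libraries had 0.310 and 0.901 FPKM. The eighth, on chromosome 16 from 83986181 to 83987362, had 20.8, 53.4 and 65.3 FPKM in WT CON, Ex-4 and FSK. The mutant CON library again lists it at 0, with 0.938 and 1.52 FPKM after Ex-4 and FSK. At the third and the sixth the WT level was lower after stimulation, with 62.0, 58.1 and 38.7 FPKM and 44.1, 38.5 and 29.4 FPKM in WT CON, Ex-4 and FSK. A pair of the 8 lay on chromosome 12, from 48794957 to 48795821 (58.1 FPKM in WT Ex-4 and 0.732 in the mutant) and from 44644900 to 44645621 (33.4 and 0.311). Across all 8, WT libraries ranged from 20.8 to 72.3 FPKM and Med14 S983A libraries reached at most 1.52 FPKM.

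**Figure D3:**
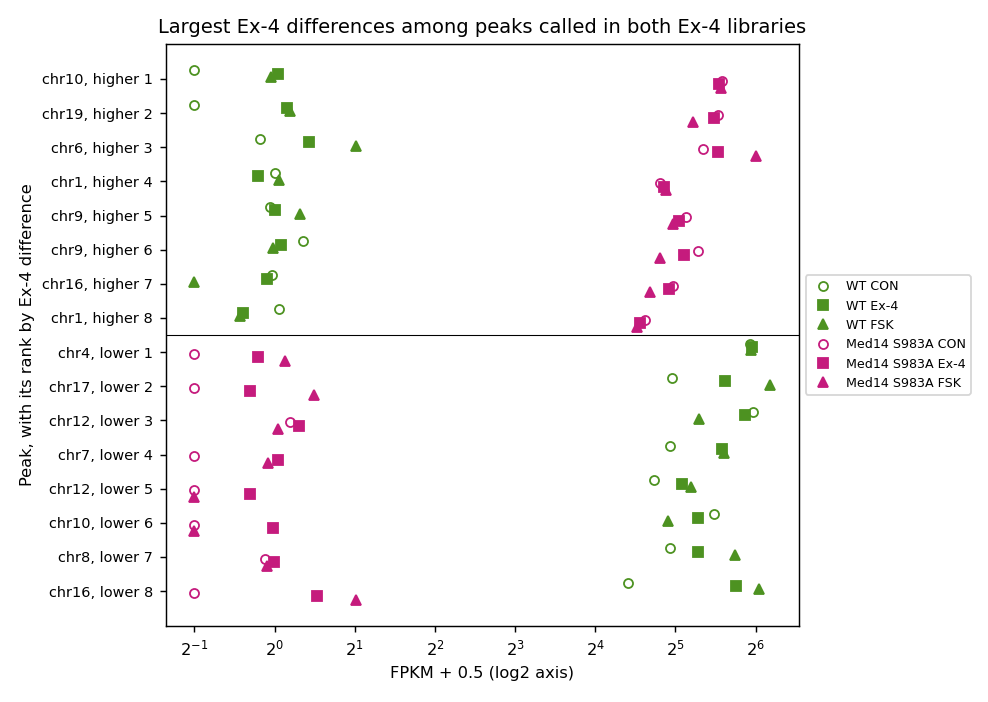
FPKM + 0.5 (log2 axis) in each of the 6 libraries at the 8 peaks with the largest gain (top) and the 8 with the largest loss (bottom) in Med14 S983A Ex-4 among peaks called in both Ex-4 libraries, with WT in green, Med14 S983A in magenta, and open circles for CON, squares for Ex-4 and triangles for FSK. Points at the left edge are peaks listed at 0. The 16 peaks were chosen by their Ex-4 difference, and the genotypes also stand apart at each of them in CON and FSK.

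The longest peaks that met the limit were changed by smaller factors. The 3 longest gains spanned 2559 to 3152 bp. The longest, on chromosome 9 from 119187852 to 119191004, had 11.6 FPKM in WT Ex-4 and 42.1 in Med14 S983A Ex-4, a ratio of 3.63 (3.52 to 3.74). The other two had 12.8 and 30.4 FPKM on chromosome 9 from 82641826 to 82644854 and 12.7 and 29.0 FPKM on chromosome 5 from 169180977 to 169183536. All 3 lie on the chromosomes with the most gains, described below. The 3 longest losses spanned 2189 to 2553 bp. They had 21.8 and 10.5 FPKM on chromosome 15 from 28015176 to 28017729, 10.2 and 2.26 on chromosome 12 from 44083527 to 44085728 and 21.7 and 3.07 on chromosome 16 from 75663427 to 75665616, in WT Ex-4 and Med14 S983A Ex-4. For each of the 6 peaks the CON and FSK libraries differed between the genotypes in the same direction and by at least 2-fold.

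Calls that only 1 of the libraries made were concentrated in short, weak peaks. The share of tested peaks called in both rose with length from 27.9% up to 200 bp over 50.9%, 74.6% and 89.6% to 97.6% above 1000 bp. Up to 200 bp, more peaks were called in Med14 S983A alone (6110) than in WT alone (4801), a WT to mutant ratio of 0.786. From 200 to 300 bp the ratio was 1.21, from 300 to 500 bp 1.61 and from 500 to 1000 bp 2.48, with 3288 WT-only and 1325 mutant-only peaks, and above 1000 bp it was 2, with 234 and 117. Calls made by a single library thus leaned to Med14 S983A among the shortest peaks and to WT among longer ones.

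The 25808 peaks called in Med14 S983A alone had a median of 2.39 FPKM and a median length of 195 bp, and 1522 of them reached 10 FPKM. Of these peaks 4998 (19.4%) were called in all 3 Med14 S983A libraries and in no WT library, while 5593 (21.7%) were called in no other library at all. Calls in WT FSK, the library with the most reads in peaks and the most called peaks (169451), included 9346 (36.2%) of them. The 28999 peaks called in WT alone had a median of 2.55 FPKM and 246 bp, and 2108 reached 10 FPKM. Here 12172 (42.0%) were called in all 3 WT libraries and in no Med14 S983A library, and 3829 (13.2%) in no other library. Those counts also depend on calls in the other genotype, such as the many in WT FSK. Leaving these aside, 16413 of the 28999 WT-only peaks were called in all 3 WT libraries. In all 3 Med14 S983A libraries 9593 of the 25808 mutant-only peaks were called. The WT-only calls were thus the more often repeated across treatments, by the counts of these 6 libraries. Such a share was not taken over all peaks. Reads in peaks ranged from 134300000 in Med14 S983A CON to 251100000 in WT FSK. They lie inside each library's own called peaks, so they depend on the calls and do not give sequencing depth. The part of sequencing depth in these calls was not tested.

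Calls seen in the Ex-4 library alone were weak. Those of Med14 S983A had a median of 2.01 FPKM and 124 bp and 73 reached 10 FPKM, and those of WT had a median of 1.799 FPKM and 133 bp and 35 reached 10 FPKM. Calls shared by all 3 libraries of 1 genotype and absent from the other were longer, with medians of 277 bp and 3.53 FPKM in Med14 S983A and 323 bp and 3.47 FPKM in WT.

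The 5 strongest mutant-only peaks had 50.5 to 64.3 FPKM and were short, 101 to 396 bp. The first, on chromosome 2 from 110305626 to 110305727, had 64.3 FPKM in Med14 S983A Ex-4, 71.1 in CON and 59.9 in FSK. It is listed at 0 in WT CON and WT Ex-4 and had 31.0 FPKM in WT FSK, so that its absence from WT Ex-4 was not shared by all WT libraries. The fifth, on chromosome 14 from 3307512 to 3307645, did the same, with 35.4 FPKM in WT FSK. Peaks on chromosome 16 from 86632672 to 86632892 and from 71585960 to 71586356 had 56.3 and 53.8 FPKM in Med14 S983A Ex-4, at least 46.0 FPKM in its other libraries, and are listed at 0 in every WT library. The remaining one, on chromosome 20 from 56193528 to 56193630, reached 54.0 FPKM under Ex-4 and 60.7 in CON but is listed at 0 in Med14 S983A FSK.

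The 5 strongest WT-only peaks had 56.8 to 62.6 FPKM, were 461 to 695 bp long and were stable in WT. The first, on chromosome 1 from 64434760 to 64435435, had 63.8, 62.6 and 54.1 FPKM in WT CON, Ex-4 and FSK, while no mutant library lists it above 0. Those on chromosome 19 from 42211278 to 42211739, chromosome 7 from 15410060 to 15410755 and chromosome 12 from 50312264 to 50312882 had 61.2, 57.2 and 56.8 FPKM in WT Ex-4 and are likewise listed at 0 in all mutant libraries. At the fifth, on chromosome 12 from 51104733 to 51105419, WT Ex-4 had 59.1 FPKM and Med14 S983A FSK had 1.10 FPKM.

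Measured in reads, the changed peaks called in both libraries held a small part of each library's reads in peaks. All shares here are of reads in peaks, not of the whole library. The 84626 peaks within 2-fold took 84.3% of those of WT Ex-4 and 88.8% of those of Med14 S983A Ex-4. The 11743 lower peaks took 8.40% in WT and 2.30% in the mutant, and the 5385 higher peaks 1.51% and 4.45%. WT-only peaks that passed the filter took 3.69% of the WT reads in peaks and mutant-only peaks 2.01% of the mutant reads in peaks. All FPKM of a library share 1 total, so that gains and losses are relative to it.

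The same genotype difference was then read in CON and FSK, which have no library in common with the Ex-4 comparison. The cells are of the same genotypes, and the peaks were chosen by their calls under Ex-4 and their mean over all 6 libraries. Over the 101754 peaks called in both Ex-4 libraries, the CON libraries put 7.07% at least 2-fold higher in the mutant and 15.6% lower, and the FSK libraries 5.17% higher and 17.1% lower. These counts include peaks listed at 0 in a CON or FSK library. Among the 86465 tested peaks called in all 6 libraries, 4.90% were higher and 10.5% lower in CON, 4.98% and 9.60% under Ex-4 and 4.07% and 11.4% in FSK. The SD of the difference across these peaks was 0.78 in CON, 0.76 under Ex-4 and 0.78 in FSK, so that the spread between the genotypes was much the same in each treatment.

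Of the 5385 peaks higher under Ex-4, 4202 (78.0%) were also at least 2-fold higher in CON, against the 7.07% of all peaks, and 3390 (63.0%) in FSK, against 5.17%. Both applied to 3052 (56.7%). Of the 11743 lower peaks, 10485 (89.3%) were lower in CON and 10519 (89.6%) in FSK, against 15.6% and 17.1% of all peaks, and 9709 (82.7%) in both. The sign was the same in all 3 treatments for 94.9% of the gains and 99.1% of the losses. That share was not taken over all peaks, so it cannot be read as particular to the changed peaks. Across the 86465 peaks called in all 6 libraries, the Ex-4 difference had a Pearson correlation of 0.95 with that in CON and 0.92 with that in FSK, and CON and FSK had 0.91. The points are peaks of the same libraries, which share line and position, and are not independent replicates.

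**Figure D4:**
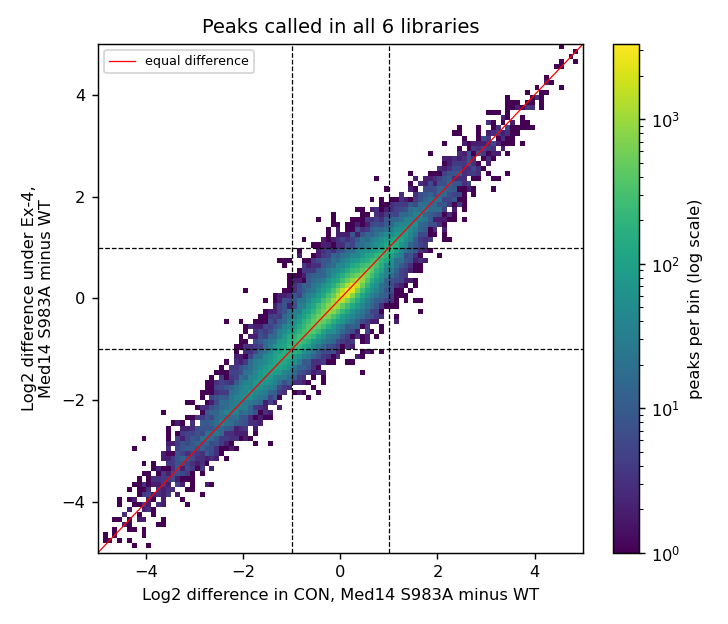
Genotype difference (Med14 S983A minus WT, log2) in CON on the horizontal axis and under Ex-4 on the vertical axis at 86455 of the 86465 peaks called in all 6 libraries, with colour for the number of peaks per bin on a log scale and dashed lines at 2-fold. The 10 peaks beyond the axes are left out, the points follow the line of equal difference (Pearson correlation 0.95), and no peak is 2-fold higher in one treatment and 2-fold lower in the other.

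Peaks that met the 2-fold limit under Ex-4 and in neither other treatment numbered 845 higher (15.7% of the higher peaks) and 448 lower (3.82% of the lower). Most of them sat just past the limit, since 708 of the 845 (83.8%) and 404 of the 448 (90.2%) differed less than 2.5-fold. Their median differences in CON were 0.73 and -0.82, in the same direction as under Ex-4. In 149 higher and 37 lower peaks the difference was under 0.5 on the log2 scale in both CON and FSK, and in 14 and 5 it had the opposite sign in both.

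Among peaks called in all 6 libraries, the response to Ex-4 within each genotype was far smaller than the difference between the genotypes. This choice leaves out peaks called only with or only without Ex-4, and those called in 1 genotype alone. The contrast is therefore not given for sites that appear or vanish as calls. Over the 86465 peaks called in all 6 libraries, 0.448% were at least 2-fold higher with Ex-4 than in CON in WT and 0.0625% lower, and in Med14 S983A 0.634% were higher and 0.0497% lower. These are 387 and 548 peaks that rose and 54 and 43 that fell, beside 4305 and 8303 that separated the genotypes under Ex-4.

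The peaks at which the Ex-4 difference departed most from the other treatments were weak. At the 5 with the largest excess on the higher side, WT Ex-4 had 0.633 to 1.23 FPKM and Med14 S983A Ex-4 1.41 to 4.54 FPKM. The first, on chromosome 3 from 6252646 to 6253306, had 1.47, 0.725 and 4.99 FPKM in WT CON, Ex-4 and FSK and 0.959, 2.98 and 3.25 in the same libraries of Med14 S983A. Ex-4 was the lowest of the 3 WT values there, while in the mutant CON was the lowest. The third, on chromosome 3 from 83015380 to 83015862, had 4.92, 1.23 and 4.63 FPKM in WT and 4.25, 4.54 and 5.03 in Med14 S983A, so that WT Ex-4 alone stood apart from the other 5 libraries. On the fifth, on chromosome 7 from 138458174 to 138458970, the Ex-4 difference was 0.75 and under the 2-fold limit.

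On the lower side the first such peak, on chromosome 12 from 2506791 to 2507677, had 0.887, 1.71 and 1.65 FPKM in WT CON, Ex-4 and FSK and 1.28, 0.468 and 2.55 in Med14 S983A. Ex-4 gave the lowest of the mutant values and FSK the highest. The second, on chromosome 1 from 220875808 to 220877240, ran from 0.406 FPKM in WT CON to 1.14 in WT Ex-4 and 1.95 in WT FSK, while the mutant values were 0.821, 0.304 and 2.92 FPKM. The third, on chromosome 5 from 147401818 to 147402649, was chosen mainly by its differences of 1.60 in CON and 1.02 in FSK. With 1.55 FPKM in WT Ex-4 and 1.28 in Med14 S983A Ex-4 it hardly differed under Ex-4 itself. The fourth, on chromosome 12 from 46706701 to 46707253, had 3.73 FPKM in WT Ex-4 and 1.08 in Med14 S983A Ex-4. With 1 library each, such a departure cannot be told apart from variation between libraries.

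Gains were unevenly spread over the chromosomes. On chromosome 9, 17.0% of the peaks called in both libraries gained at least 2-fold in Med14 S983A and 9.68% lost as much, and on chromosome 5 11.6% were higher and 8.75% lower. On every other chromosome the share of gains lay between 3.14% and 5.90%. The lowest was on chromosome 17, where 15.96% were lower. Chromosomes 9 and 5 were the only ones with more gains than losses on the authors' scale, and they kept more gains under centring and quantile normalization. Quantile normalization gave nearly equal numbers on chromosome 11 (235 higher and 224 lower) and on chromosome X (151 and 150), and the remaining chromosomes kept more losses under each scaling. The median difference was 0.25 on chromosome 9, 0.17 on chromosome 5, -0.18 on chromosome 12 and -0.17 on chromosome 17.

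The peaks were then taken in 498 runs of 200 neighbours. In 12 runs the median difference was at least 1.5-fold above that of all peaks, and in 4 at least 1.5-fold below. The raised runs formed stretches of 1000 peaks on chromosome 5 from 154017962 to 171178554 and of 1400 peaks on chromosome 9 from 71426540 to 112310724. Their medians were 0.89 and 0.81 under Ex-4, 0.88 and 0.86 in CON, and 0.89 and 0.77 in FSK. The lowered runs formed stretches of 400 peaks each, on chromosome 4 from 162046016 to 180294348 with a median of -0.91 and on chromosome 15 from 32298 to 10955444 with a median of -0.67.

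The stretches were chosen by their run medians under Ex-4, so most of their peaks had to lie on the same side of 0. The shares below only give the extent, beside a median difference of 0.03 over all peaks called in both. On chromosome 5, 85.3% of the 1000 peaks were above 0, and on chromosome 9 80.5% of the 1400. On chromosome 4 10.3% and on chromosome 15 17.0% were above 0. The stretches held 3.14% of the peaks, 16.3% of the gains and 3.62% of the losses. Outside them 4507 of 98554 peaks (4.57%) were higher and 11318 (11.5%) lower, so that the losses were hardly altered by leaving the stretches out. The other 482 runs had medians between -0.51 and 0.55, and some of them were shifted in a row by less than the limit. Medians were -0.51 to -0.44 on chromosome 17 from 9965 to 14057117. On chromosome 12 from 25601459 to 50460664 they were -0.49 to -0.29. The run that followed the stretch on chromosome 9 had 0.54.

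**Figure D5:**
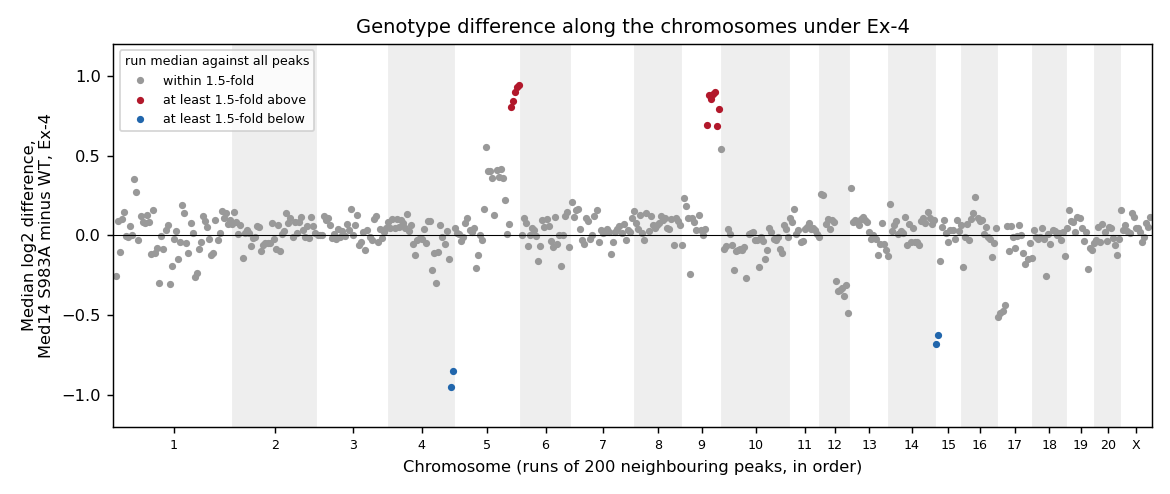
Median genotype difference under Ex-4 (Med14 S983A minus WT, log2) in each of the 498 runs of 200 neighbouring peaks called in both Ex-4 libraries, in order along the chromosomes, with runs at least 1.5-fold above (red) or below (blue) the median of all peaks. The 12 raised runs lie on chromosomes 5 and 9 and the 4 lowered runs on chromosomes 4 and 15.

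Among the tested peaks called in both libraries, changed peaks also lay near others that changed the same way. The nearest neighbour of a higher peak was itself higher in 20.4% of cases, against 5.43% for all peaks, and that of a lower peak was lower in 25.1%, against 10.9%. Outside the shifted stretches these shares were 14.7%, against 4.70%, and 24.4%, against 10.8%. That set still holds the smaller regional shifts given above. Lower peaks were the more isolated, with a median distance to the nearest peak of 6221 bp, against 4236 bp for higher peaks and 4665 bp for all.

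Unbroken series of neighbours that changed alike, among peaks called in both libraries, were looked for after the values had been seen. There were 33 of at least 5 higher peaks and 83 of at least 5 lower peaks. Such series held few changed peaks, 206 out of 5385 gains and 514 out of 11743 losses. Most stood single, with no adjoining peak that changed alike, at 3794 gains (70.5%) and 7226 losses (61.5%). The longest series of gains was 14 peaks over 200 kb on chromosome 9, from 119182351 to 119382148. Its peaks had 0.554 to 18.5 FPKM in WT Ex-4 and 3.36 to 50.5 FPKM in Med14 S983A Ex-4, with a median difference of 1.57 under Ex-4, 1.87 in CON and 1.56 in FSK. It holds both the sixth of the largest gains and the longest gain given above. The longest series of losses was 13 peaks over 479 kb on chromosome 6, from 127584453 to 128063549, which had 4.57 to 25.7 FPKM in WT Ex-4 and 0.399 to 4.96 FPKM in Med14 S983A Ex-4. Its median difference was -1.85 under Ex-4, -2.01 in CON and -1.94 in FSK.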

How the data were processed

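INS-1 ATAC-seq libraries of both genotypes, 1 per condition, were analysed from a table of merged peaks. Per the study's methods, trimming used Trim Galore, alignment to rn6 used bwa mem, samtools removed mitochondrial, poorly mapped and duplicate reads, and macs2 called the peaks. The deposited values are FPKM that the authors computed with HOMER over the merged peaks, together with each peak's length. The study's software list gives versions of macs2, samtools and HOMER and none of Trim Galore or bwa. Its methods describe a shift of fragments with ATACseqQC after peak calling. The sources used here do not state whether the FPKM rest on shifted fragments or whether replicates were pooled. Coordinates are printed as deposited (rn6), and whether starts count from 0 or 1 is not stated.

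Differences were taken as log2(FPKM + 0.5) for peaks off the mitochondrial chromosome whose 6 libraries averaged 1 FPKM or more, and a 2-fold limit was used. With 1 library per group, no test was made. Reads were recovered from the steps of low values, all of which lay within 0.15 of a whole number in both Ex-4 libraries (25597 values in WT and 28523 in Med14 S983A). Intervals are exact Poisson intervals for levels and exact conditional binomial intervals for ratios, at 95%. Neighbouring peaks were summarised in runs of 200.

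The peaks named are the 8 with the largest difference in each direction among those called in both Ex-4 libraries, the 5 strongest called in 1 of them, the 5 in each direction called in all 6 libraries whose Ex-4 difference most exceeds the mean of the CON and FSK differences, and the 3 longest that changed in each direction. The peaks compared and these rules were chosen with earlier results of these data known. No annotation or sequence of rn6 was used here, so genes and motifs are not given. The calculation was tested on simulated data. Alternatives were pseudocounts, filters, scalings, fold limits, other choices of peaks and run settings. Calculations ran in Python 3.11.15 with pandas 2.3.3, numpy 2.4.6 and scipy 1.17.1, and figures in matplotlib 3.10.9.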

Additional observations from a re-analysis of the deposited data

Results flagged for a closer look

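Reads remained on the mitochondrial chromosome, which lies outside the comparison. Its 3 peaks took 0.960% of the reads in peaks of Med14 S983A Ex-4 and 0.567% of those of WT Ex-4, a ratio of 1.69. In the untreated libraries the shares were 1.08% in Med14 S983A and 0.669% in WT.

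Some peaks differed in opposite directions between treatments, by at least 2-fold in each. Among all tested peaks, 599 were higher in Med14 S983A under Ex-4 and lower in CON, and 359 were lower under Ex-4 and higher in CON. Against FSK the numbers were 669 and 170. These differences between treatments were not tested, as each condition has 1 library. Only 1 of the peaks opposed in CON and 2 of those opposed in FSK had values above 0 in all 4 libraries, and among peaks called in all 6 libraries there were 0 of either kind.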

How the results depend on the processing

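No paired analysis was possible because the Ex-4 comparison holds a single pair of libraries, which also means that no replicate could be left out. A fit of genotype and treatment over all 6 libraries, which would take the treatments as replicates of the mean genotype difference, is another comparison and was not run. Of 83 values recomputed under alternatives, 57 stayed close and 26 moved. A count was taken to move past 1.5 times, and the median difference outside 0.0251 to 0.0321, its 95% order-statistic interval over peaks, which is no replicate error. Pseudocounts of 0.1 and 1 moved none of the values they were applied to. Centring of libraries or of chromosomes, and merged peaks made of 1 called peak per list, a choice added after seeing the data, moved none of the counts they were applied to. Centring of libraries turned the balance in 3 length classes, as given above, and moved the median difference to 0.1354, a value also added after seeing the data. Fewer or more peaks are tested under another filter: with no filter 31204 peaks were higher. With a mean of at least 3 FPKM 7788 were higher and 13684 lower over all tested peaks, 4270 and 11490 were so in all 3 treatments, 523 and 292 called in both libraries met the limit under Ex-4 alone, and the median difference was 0.0419. That median was 0.0962 after quantile normalization and 0.0518 over peaks called in all 6 libraries, of which the cause was not tested. At 1.5-fold, 13205 peaks called in both were higher and 20850 lower, 13638 tested peaks were higher in all 3 treatments, and 2192 higher and 940 lower met the limit under Ex-4 alone. At 4-fold these were 815 and 2884, 4784 higher and 12356 lower in all 3 treatments, against 8258 and 21945 at 2-fold, and 66 and 92 under Ex-4 alone, so that the order of the last pair turned. Runs of 100 peaks gave 25 raised and 11 lowered, and a lower limit for calling a run shifted gave 22 and 17. Among peaks called in both libraries, the counting interval lay wholly beyond 2-fold for 4378 of 5385 higher and 10268 of 11743 lower peaks. These peaks were chosen by the same reads, and the missing replicates limit all of them.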
